A study of Mus musculus with 20 samples.

Results

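Dcx, Sox11, Sox4, Dpysl3, Dpysl5, Igfbpl1, Neurod1 and Nes are genes of neural progenitors and young neurons, and they were followed here as a group of 8 among the 19463 genes measured in whole brains of Katnal2-KO and WT mice. They were chosen by name, for what they are known to mark and with earlier results of these data in view, and all 8 passed the filter on low values (a mean of at least 10). RNA came from male mice of the C57BL/6J strain aged 3 weeks (P21, postnatal day 21) or 10 weeks (P70), and the 20 mice formed 4 groups of 5, named P21 WT, P21 KO, P70 WT and P70 KO. KO mice were homozygous for a deletion of exon 3 of Katnal2, a gene for a protein related to the microtubule-severing katanins, made from a EUCOMM floxed allele by treating embryos with a cell-permeable Cre protein (HTNC). The deletion was made in early embryos, so it is not limited to the brain, and littermates of both genotypes shared cages after weaning. Values are normalized counts, that is, read counts per gene that the authors scaled between mice with DESeq2, and they are not corrected for gene length.

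In the postnatal mouse brain, new neurons are made in the lining of the lateral ventricles, whose neuroblasts migrate to the olfactory bulb, in the dentate gyrus, and, until about weaning, in the outer layer of the cerebellum. Nestin (Nes) is an intermediate filament of neural stem cells that capillary cells can also carry. Neurod1, Sox4 and Sox11 are transcription factors that turn on neuronal genes in cells leaving the cell cycle. Doublecortin (Dcx) binds microtubules in migrating neuroblasts, Dpysl3 and Dpysl5 are collapsin response mediator proteins of growing axons, and Igfbpl1 is a secreted protein of the insulin-like growth factor binding family. In whole-brain RNA, fewer cells of a type and less RNA per cell cannot be told apart.

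Estimated depth was 26300000 to 36100000 reads a mouse at P21 and 23100000 to 27700000 reads at P70, so the older groups were sequenced less deeply. Katnal2 itself averaged 89.0 ± 8.72 normalized counts in P21 KO mice and 107 ± 7.38 in P21 WT mice (SD, n = 5), with all KO mice below all WT mice, and 105 ± 11.8 and 122 ± 16.4 at P70, where the groups overlapped. Its log2 fold change was -0.27 and -0.21 (limma adjusted p = 1 each). Transcripts without exon 3 can still be counted, so its level is only a partial check of the labels. The 18 mature neuron genes, which mark the labelled tissue, had a summed level of 318953 to 356106 normalized counts in the 20 mice. The replicate 5 mice of both P70 groups stood apart from the other P70 mice. Their root mean square deviation from the group means was 0.532 (KO) and 0.438 (WT) on the log2 scale, against 0.302 to 0.329 in the other 8 P70 mice, and their estimated depth was 27700000 and 27200000 reads, against 23100000 to 24500000 reads. Counts of called genes that change without these 2 mice are also given without them. Fold changes, medians and other values are given without them only in part and may also change. Tests were made with limma on log2(value + 1), so fold changes are on that scale, and p-values were adjusted over all genes tested by the Benjamini-Hochberg method, with a call at an adjusted p under 0.05. The age and genotype comparisons share groups of mice and are given side by side.

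From P21 to P70 the genes Sox4, Dpysl3 and Dpysl5 fell in the brains of both genotypes. Dcx and Igfbpl1 were called lower in WT mice and Neurod1 in KO mice, and Sox11 and Nes were not called. For none of the 8 genes was the change with age called different between genotypes. In WT mice 5 of the 8 genes were called lower at P70 and 0 higher, against a background of 4.7% of 17630 genes called lower and 4.62% called higher. In KO mice 4 of the 8 were called lower and 0 higher, against 4.53% and 3.78% of 17641 genes. The 8 genes had a median log2 fold change of -0.43 in WT and -0.45 in KO mice, beside medians over all genes of 0.00 and -0.01. Without the P70 replicate 5 mice, 5 genes were called lower in WT, and 5 lower and 1 higher in KO mice. The background rose as well in that setting. In WT mice 1431 of 17644 genes were called lower and 1569 higher, against 828 and 815 with all mice. In KO mice it was 1895 and 1864 of 17654, against 800 and 667.

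**Figure D1:**
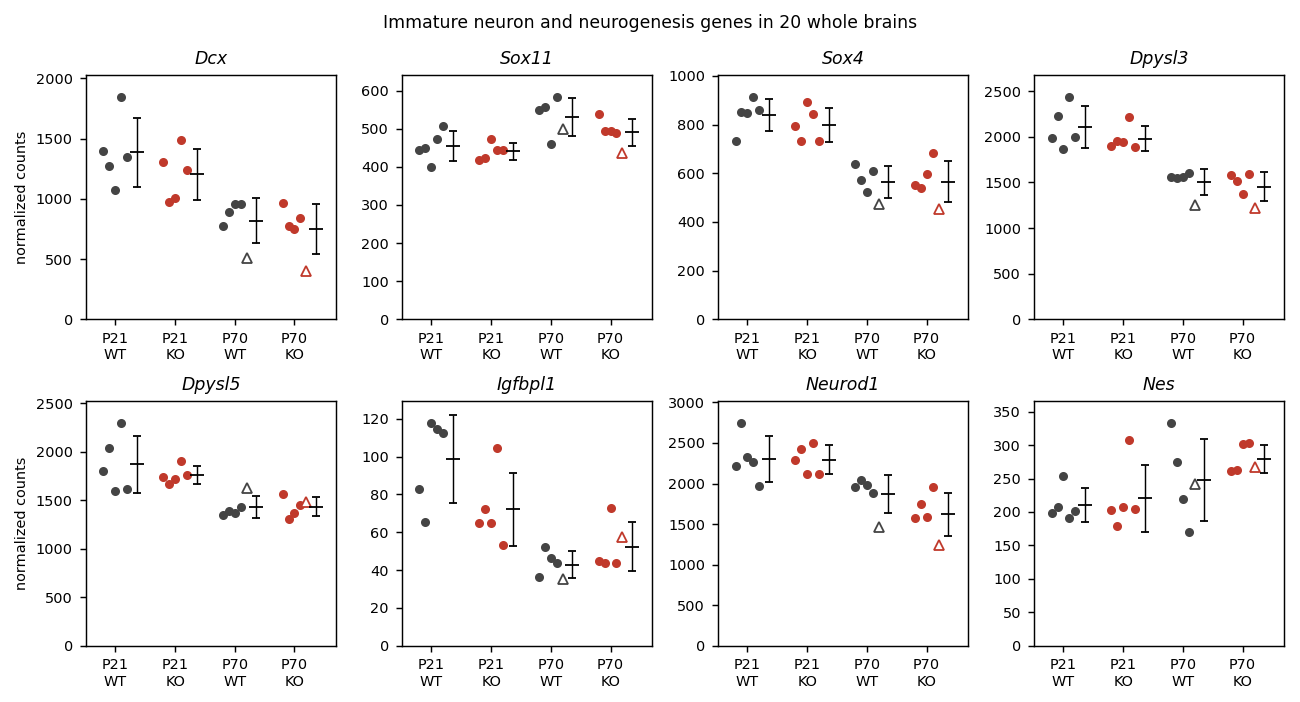
Normalized counts (y axis, from 0) of the 8 genes in each of 20 mice, in 4 groups of 5 (WT grey, KO red), with the group mean and SD as bars. Open triangles are the replicate 5 mice at P70, which held the lowest Dcx, Sox4, Dpysl3 and Neurod1 values of their groups. Dcx, Sox4 and Dpysl3 at P70 lay below every P21 mouse of the same genotype, while the groups of Nes and Sox11 overlapped.

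Of the transcription factors, Sox4 was called lower at P70 in both genotypes. In P21 WT mice of replicates 1 to 5 it had 734, 851, 848, 914 and 858 normalized counts, and in P70 WT mice 638, 571, 524, 609 and 473. In KO mice it had 794, 734, 892, 845 and 734 at P21 and 553, 541, 598, 681.5 and 454 at P70. Every P70 mouse was below every P21 mouse of its genotype, a pattern seen in 5.6% of all genes tested in WT and 5.52% in KO mice. Sox4 went from 841 ± 65.7 to 563 ± 65.9 in WT mice (SD, n = 5) and fell by 0.58 on the log2 scale (standard error, or SE, 0.09, limma adjusted p = 0.0018). In KO mice it fell from 799.8 ± 69.5 to 565 ± 83.2, a log2 fold change of -0.51 (SE 0.11, limma adjusted p = 0.011).

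Sox11, the closest relative of Sox4 among the 8 genes, was not called with age in either genotype. It had 444, 449, 398, 474 and 507 normalized counts in P21 WT mice and 548, 558, 459, 584 and 499 in P70 WT mice, and 417, 424, 473, 443 and 445 in P21 KO mice and 538, 494, 493, 488 and 437 in P70 KO mice. The ages overlapped in both genotypes, with most P70 mice at the higher end. Its log2 fold change was 0.22 in WT (limma adjusted p = 0.156) and 0.15 in KO mice (limma adjusted p = 0.264), and neither was called. Without the P70 KO replicate 5 mouse the KO value was 0.19 and was called higher (limma adjusted p = 0.0488). Sox4 (chromosome 13, 28948919 to 28953713) and Sox11 (chromosome 12, 27334264 to 27342574) are single-exon genes on the minus strand in GENCODE M21 (GRCm38). An antisense long noncoding RNA overlaps Sox4, and the library kit does not mark strand, so its reads cannot be told from those of Sox4.

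Neurod1, which drives granule neurons of the dentate gyrus and cerebellum to differentiate and is kept by many of them in the adult, had 2215, 2745, 2322, 2263 and 1969 normalized counts in P21 WT mice and 1959, 2049, 1985, 1888 and 1468 in P70 WT mice. In KO mice it had 2293, 2429, 2118, 2504 and 2118 at P21 and 1576, 1753, 1581, 1956 and 1236 at P70. The KO ages did not overlap, while in WT mice the highest P70 mice reached above the lowest P21 mouse. Neurod1 fell in KO mice, from 2292 ± 176 to 1620.3 ± 265, by 0.51 on the log2 scale (SE 0.11, limma adjusted p = 0.013). In WT mice the means were 2303 ± 281 and 1869.8 ± 232, a log2 fold change of -0.30 that missed the threshold (SE 0.10, limma adjusted p = 0.0878). The difference between the genotypes in this change was -0.21 on the log2 scale (95% interval -0.54 to 0.12, limma adjusted p = 1), so the genotypes were not shown to differ. Neurod1 (chromosome 2, 79452521 to 79456751, minus strand) lies within the span of Cerkl, which ranged from 33.2 to 108 normalized counts. It also overlaps the span of an antisense long noncoding RNA. Whether exons of these genes meet those of Neurod1 was not checked. Where they do, some reads could have been assigned to either side.

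Doublecortin was lower in every P70 mouse than in any P21 mouse of the same genotype. Dcx, on the minus strand of chromosome X from 143855842 to 143933311, had 1396, 1270, 1074, 1848 and 1350 normalized counts in P21 WT mice and 779, 895, 959, 959 and 509 in P70 WT mice. In KO mice it had 1309, 971, 1005, 1486 and 1244 at P21 and 965, 776.5, 754, 840 and 404 at P70. The replicate 5 mice were lowest at P70, and the highest P70 KO mouse was just under the lowest P21 KO mouse. Dcx fell from 1388 ± 285 to 820.1 ± 189 in WT mice, a log2 fold change of -0.77 (SE 0.17, limma adjusted p = 0.014). In KO mice the means were 1203 ± 216 and 748 ± 209 and the log2 fold change was -0.72 (SE 0.21), at the edge of the threshold (limma adjusted p = 0.05005). The KO change was smaller but called, at -0.52 with limma adjusted p = 0.0090, without the P70 KO replicate 5 mouse. It was also called without P70 KO replicate 1, at -0.83 (limma adjusted p = 0.0366). The change of Dcx with age differed between genotypes by 0.05 on the log2 scale (95% interval -0.56 to 0.66), which was not called.

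The collapsin response mediator genes Dpysl3 and Dpysl5 both fell. Dpysl3, which lies on the minus strand of chromosome 18 from 43320984 to 43438286 (GRCm38, GENCODE M21), had 1991, 2232, 1867, 2439 and 2002 normalized counts in P21 WT mice and 1560, 1551, 1558, 1609 and 1249 in P70 WT mice. In KO mice it had 1900, 1959, 1943, 2217 and 1884 at P21 and 1579, 1513, 1376, 1589 and 1215 at P70. Neither genotype had any overlap between ages, and 4 of the 5 P70 WT mice lay between 1551 and 1609. The log2 fold change of Dpysl3 was -0.48 in WT (SE 0.09, limma adjusted p = 0.0051) and -0.45 in KO mice (SE 0.09, limma adjusted p = 0.0065).

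Dpysl5 had 1798, 2038, 1596, 2296 and 1618 normalized counts in P21 WT mice, 1345, 1391, 1371, 1435 and 1625 in P70 WT mice, 1736, 1665, 1722, 1910 and 1762 in P21 KO mice, and 1560, 1303, 1373, 1451 and 1483 in P70 KO mice. The KO ages did not overlap, and in WT mice only the P70 replicate 5 mouse, the highest of its group, reached into the P21 range. Its log2 fold change was -0.37 in WT (SE 0.10, limma adjusted p = 0.035) and -0.30 in KO mice (SE 0.07, limma adjusted p = 0.019). These calls were the least secure of the group. The WT call was lost on leaving out any one of 7 of the 10 mice (P21 WT replicates 1, 2 and 4 and P70 WT replicates 1 to 4, limma adjusted p = 0.0633 to 0.0878), and the KO call without P21 KO replicate 4 or P70 KO replicate 3 (0.0586 and 0.0541).

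Igfbpl1 (chromosome 4, 45809468 to 45826923, minus strand), which had the lowest counts of the 8 genes, had the largest fold change of the 8 in WT mice. It had 82.6, 65.4, 117.7, 114.7 and 112.5 normalized counts in P21 WT mice and 36.3, 52, 46.6, 43.9 and 35.4 in P70 WT mice, so that the lowest P21 mouse was above the highest P70 mouse. In KO mice it had 65, 72.5, 64.7, 104.7 and 53.4 at P21 and 44.7, 43.5, 72.9, 43.6 and 57.3 at P70, and the ages overlapped. Igfbpl1 fell from 98.6 ± 23.3 to 42.8 ± 7.03 in WT mice, a log2 fold change of -1.16 (SE 0.19, limma adjusted p = 0.0019). In KO mice the means were 72.1 ± 19.5 and 52.4 ± 12.8 and the log2 fold change of -0.45 was not called (SE 0.20, limma adjusted p = 0.217). The change with age differed between genotypes by 0.72 on the log2 scale (95% interval 0.13 to 1.30), the largest difference among the 8 genes, and it was not called over 17637 genes (limma adjusted p = 1). Without the P70 replicate 5 mice this difference was 0.61 (95% interval -0.01 to 1.24).

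Nestin was not called in either genotype. Nes (chromosome 3, 87971078 to 87980451, plus strand) had 198.5, 208, 254, 191 and 202 normalized counts in P21 WT mice and 333, 275, 219, 170.2 and 241 in P70 WT mice, and 203, 179, 208, 308 and 205 in P21 KO mice and 262, 263, 302, 303 and 267 in P70 KO mice. The ages overlapped in both genotypes, through the spread of the P70 WT mice and through P21 KO replicate 4. The log2 fold change was 0.20 in WT (limma adjusted p = 0.459) and 0.36 in KO mice (limma adjusted p = 0.123). Without P21 KO replicate 4, Nes was called higher at P70 in KO mice, at 0.49 (limma adjusted p = 0.0147).

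**Figure D2:**
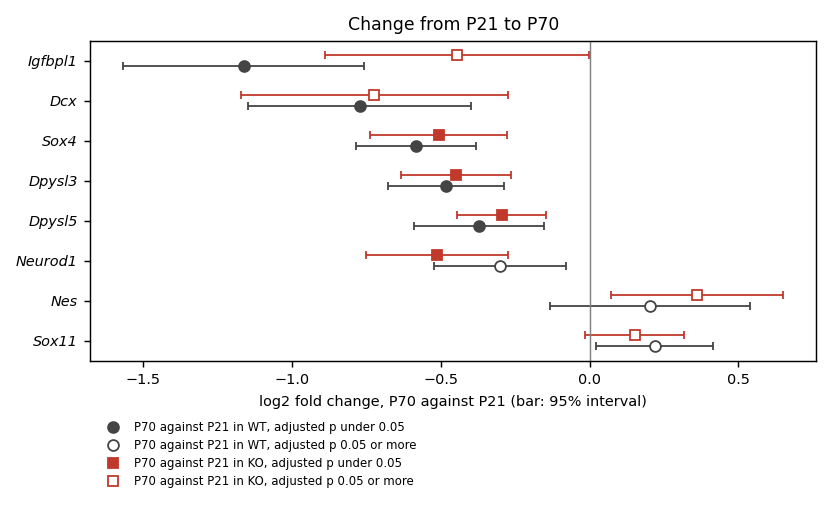
Log2 fold change at P70 against P21 (x axis) of each gene in WT (circles) and KO mice (squares), with 95% intervals. Filled symbols were called. The symbols of Igfbpl1 lie farthest apart (-1.16 in WT and -0.45 in KO), and those of Nes and Sox11 lie above 0.

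Compared per kilobase of annotated exon, the level order in P21 WT mice was Neurod1 (844 ± 103 normalized counts per kilobase, SD, n = 5), Dpysl3 (319 ± 34.5), Dpysl5 (253 ± 40.3), Sox4 (175 ± 13.7), Dcx (109.7 ± 22.5), Sox11 (54.7 ± 4.83), Nes (32.8 ± 3.89) and Igfbpl1 (30.3 ± 7.17). The ranges of mean ± SD overlapped for Dpysl3 and Dpysl5 and for Nes and Igfbpl1. At P70 the order in WT mice was the same. The ranges of Dpysl3 (228 ± 22.0 per kilobase) and Dpysl5 (194 ± 15.2) again overlapped, as did those of Dcx (64.8 ± 14.9) and Sox11 (63.7 ± 5.99). Those of Nes (38.6 ± 9.50) and Igfbpl1 (13.2 ± 2.16) no longer did. The place of Dcx depends on the length taken, since by its longest transcript it had 153 ± 31.4 per kilobase in P21 WT mice, which overlapped the range of Sox4.

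The starts of these genes differ in base composition. Stretches before the start are shown for Dcx, Sox4, Dpysl5 and Sox11, because the first 3 were called lower at P70 in WT mice and Sox11 was not. They are the bases of the RefSeq promoter windows (GRCm38.p6, 250 bases before the RefSeq start) that lie outside the GENCODE M21 gene, written from 5′ to 3′ on the strand of the gene, with CG dinucleotides in capitals.
Dcx: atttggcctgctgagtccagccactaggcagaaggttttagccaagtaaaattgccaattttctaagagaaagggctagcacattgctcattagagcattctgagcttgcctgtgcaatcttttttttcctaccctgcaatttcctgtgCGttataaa
Sox4: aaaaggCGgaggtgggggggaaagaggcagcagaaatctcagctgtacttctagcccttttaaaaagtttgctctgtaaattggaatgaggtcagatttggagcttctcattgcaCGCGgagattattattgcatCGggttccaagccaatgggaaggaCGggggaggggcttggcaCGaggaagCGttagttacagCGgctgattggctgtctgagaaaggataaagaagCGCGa
Dpysl5: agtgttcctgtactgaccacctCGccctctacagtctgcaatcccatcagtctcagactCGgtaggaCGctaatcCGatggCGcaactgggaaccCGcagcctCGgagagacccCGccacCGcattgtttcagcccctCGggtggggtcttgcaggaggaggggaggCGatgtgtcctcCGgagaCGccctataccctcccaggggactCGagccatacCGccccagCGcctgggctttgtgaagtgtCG
Sox11: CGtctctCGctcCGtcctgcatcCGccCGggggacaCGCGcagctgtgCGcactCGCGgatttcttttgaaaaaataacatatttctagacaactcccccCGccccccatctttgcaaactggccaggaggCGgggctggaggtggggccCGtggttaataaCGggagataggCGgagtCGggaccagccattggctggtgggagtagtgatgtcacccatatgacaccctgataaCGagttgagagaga
The Dcx stretch (chrX:143933312-143933469, minus strand) has 158 bases and 1 CG dinucleotide. The stretch of Sox4 (chr13:28953714-28953949, minus strand) has 236 bases and 10, and those of Dpysl5 (chr5:30711314-30711563, plus strand) and Sox11 (chr12:27342719-27342968, minus strand) have 250 bases and 17 each. Whole windows of 250 bases held 3 CG dinucleotides at both RefSeq starts of Dcx, 11 for Sox4, 15 for Nes, 17 for Dpysl5 and Sox11 and 22 for Neurod1, and the median over all 32851 RefSeq windows was 6.

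In these whole windows 3 motifs were searched on both strands. The Sox motif ACAAAG, found in 16.5% of all windows, was in 1 Dcx window 8 bases before its start and, on the opposite strand, in the Dpysl5 window 15 bases before the start. The letters TATAAA, found in 12.4%, were at 1 genomic position that both Dcx windows cover, 98 and 193 bases before their starts. The E-box CAGATG, found in 14.4%, was in none of the windows of these 6 genes. A match is only one of letters. Igfbpl1 had no entry, and windows on chromosome 18, where Dpysl3 lies, were left out of the search.

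The relatives of the 8 genes moved in both directions with age. Of 16 relatives, 3 were called lower and 1 higher in WT mice (median log2 fold change -0.11) and 3 lower and 2 higher in KO mice (median 0.01), and without the replicate 5 mice 5 and 2 in WT and 5 and 4 in KO mice. Among the collapsin response mediator genes, Dpysl4 fell with Dpysl3 and Dpysl5 (log2 fold change -0.57 in WT and -0.54 in KO), Dpysl2 rose (0.77 and 0.76), and Crmp1 was not called (-0.12 and -0.14). Igfbp3 and Igfbp7, of the same binding protein family as Igfbpl1, were called lower in both genotypes, with log2 fold changes of -1.09 and -0.55 in WT mice and, for Igfbp7, -0.60 in KO mice. Neurod2, a relative of Neurod1 kept by adult cortical neurons, was called higher in KO mice only (0.30, limma adjusted p = 0.0213), with 0.22 in WT (limma adjusted p = 0.121), and the difference was not called.

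Other genes of the same cell states gave a mixed picture. The lists share some genes, and Dpysl2 and Neurod2 are among both the relatives and the neuroblast and young neuron genes. Of 41 other neuroblast and young neuron genes, 9 were called lower and 1 higher in WT mice (median log2 fold change -0.17) and 10 lower and 3 higher in KO mice (median -0.12), and without the replicate 5 mice 11 and 1 in WT and 12 and 4 in KO mice. Those with the smallest limma p in WT mice were Marcksl1, Mllt11 and Tuba1a, with log2 fold changes of -1.32, -0.51 and -0.58. Of 20 neural stem and progenitor genes, 3 fell and 1 rose in WT mice and 3 fell and 2 rose in KO mice, with medians of 0.00 and -0.11, and without the replicate 5 mice 5 and 1 in WT and 3 and 5 in KO mice. The 3 that fell in WT mice were Prom1, Lpar1 and Fabp7 (-0.77, -0.74 and -1.11), and Prom1 and Lpar1 are also known from glial cells. Of 20 cell division genes, 5 fell and 2 rose in WT and 5 fell and 1 rose in KO mice, and the proliferation markers Mki67 and Top2a fell by 0.89 and 0.83 on the log2 scale in WT mice. Leaving out 1 mouse at a time gave 2 to 7 cell division genes called in WT and 6 to 9 in KO mice. Without the replicate 5 mice, 7 cell division genes fell and 2 rose in KO mice. Of 10 cerebellar granule precursor genes tested, 0 were called in either genotype (1 and 2 had an unadjusted limma p under 0.05), while without the replicate 5 mice 1 fell and 1 rose in KO mice.

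Markers of other cells in whole brain moved over the same interval. Of 10 oligodendrocyte precursor and differentiating genes, 8 fell in WT and 9 in KO mice (medians -0.60 and -0.70), and of 8 mature oligodendrocyte genes, 7 and 8 fell (medians -1.12 and -1.28). The summed level of the 8 mature oligodendrocyte genes was 393557 to 443723 normalized counts in P21 WT mice and 166803 to 190492 in P70 WT mice. The 5 blood genes fell in WT mice (median -2.01), and 4 of them in KO mice (median -0.96). Of the 12 endothelial and mural genes, 2 fell in WT and 1 in KO mice, and without the replicate 5 mice 6 fell in WT and 4 fell and 1 rose in KO mice. Of the 10 cerebellum genes, 2 and 4 fell. Of 18 mature neuron genes, 2 rose in WT mice, and 1 fell and 1 rose in KO mice. None of 8 astrocyte and 8 microglia genes was called in either genotype, 1 of 8 ependyma and choroid genes rose in WT mice, and 1 of 7 olfactory bulb genes rose in KO mice. Without the replicate 5 mice, 1 mature neuron gene fell and 4 rose in WT and 4 fell and 4 rose in KO mice, 1 astrocyte gene rose in WT and 1 fell and 1 rose in KO mice, and 2 ependyma and choroid genes rose in WT and 1 in KO mice. In KO mice of that setting, 10 oligodendrocyte precursor, 5 blood and 5 cerebellum genes fell, and 1 olfactory bulb gene fell and 1 rose. The part of these lists in the age differences of the 8 genes was not tested.

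**Figure D3:**
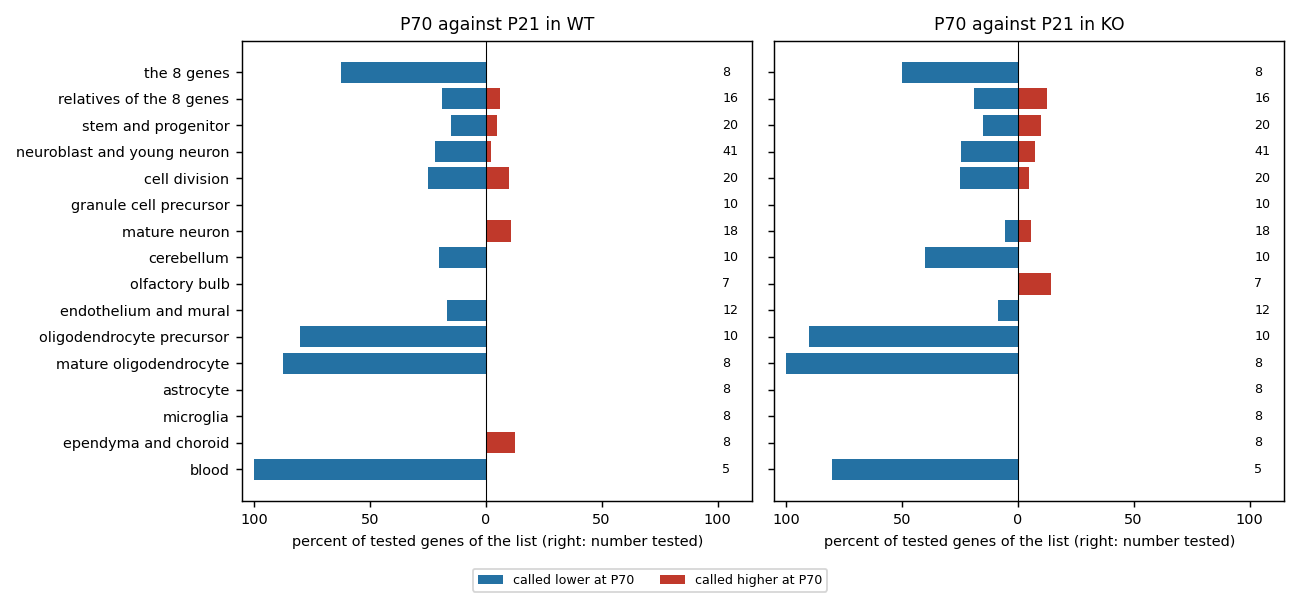
Percent of the tested genes of each list (x axis, number tested at the right) called lower (blue, to the left) or higher (red, to the right) at P70 than at P21, in WT and in KO mice. The 8 genes (5 lower in WT and 4 in KO) had a larger called share than the 41 other neuroblast and young neuron genes (9 and 10 lower) and a smaller one than the mature oligodendrocyte genes (7 and 8 of 8).

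Whether loss of Katnal2 changed these genes was asked at each age. At P21, 0 of the 8 genes were called, as were 0% of 17610 genes, and at P70, 0 of 8 and 0% of 17613. The age by genotype interaction likewise called 0 of 8 and 0% of 17637 genes. Without adjustment, 429, 199 and 296 genes (2.44%, 1.13% and 1.68%) had a limma p under 0.05 in these 3 comparisons. These shares are below what that threshold would give if no gene differed. The 1 member among these genes was Igfbpl1, at P21 and in the interaction. In exact two-sided permutation tests of each gene at each age (16 tests, each over all relabellings of 10 mice, smallest possible p = 0.00794), no p was under 0.05 and the smallest was 0.0794, unadjusted. The paper, which tested with DESeq2, reported small sets of genes that differed between genotypes at each age. The counts of 0 over all genes thus hold for limma on these normalized counts.

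At P21, 7 of the 8 genes had a lower mean log2 value in KO mice, with Nes the exception, and the median difference was -0.07, beside 0.00 over all genes. Igfbpl1 was lower in KO mice in 22 of 25 pairs of a KO and a WT mouse, with a log2 fold change of -0.45 (95% interval -0.88 to -0.02, limma adjusted p = 1, exact permutation p = 0.0794). P21 KO replicate 4 (104.7) was the highest KO mouse and P21 WT replicate 2 (65.4) the lowest WT mouse. Without the first of them the difference was -0.59, and without the second -0.58 (exact permutation p = 0.0317 each). Leaving out each of the 10 mice in turn gave -0.59 to -0.35, and no other removal gave an exact permutation p under 0.05. Dcx was lower by 0.20 on the log2 scale (95% interval -0.50 to 0.10, limma adjusted p = 1), in 18 of 25 pairs. The intervals of the other 6 genes at P21 lay between -0.27 and 0.33.

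At P70, 4 of the 8 genes had a lower mean log2 value in KO mice (median -0.02). The log2 fold change of Igfbpl1 was now 0.27 (95% interval -0.14 to 0.68), with KO mice lower in 8 of 25 pairs. Neurod1 had a log2 fold change of -0.21 (95% interval -0.49 to 0.07, limma adjusted p = 1), with KO mice lower in 20 of 25 pairs. Without the replicate 5 mice it was -0.20 (95% interval -0.35 to -0.05, limma adjusted p = 1, exact permutation p = 0.0571). Nes had a log2 fold change of 0.20 (95% interval -0.14 to 0.55), and the narrowest interval belonged to Dpysl5, from -0.17 to 0.17. A p that misses the threshold does not show equal levels, and these intervals give the differences that the 5 mice a group leave possible.

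**Figure D4:**
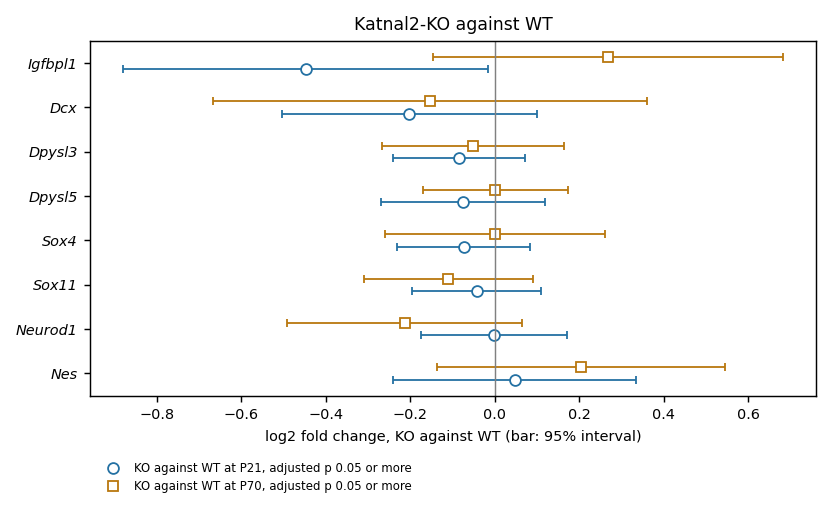
Log2 fold change in KO against WT mice (x axis) of each gene at P21 (circles) and P70 (squares), with 95% intervals. All symbols are open, since 0 of 8 genes were called at either age, and the interval of Igfbpl1 at P21 (-0.88 to -0.02) is the one that does not reach 0.

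Some marker lists leaned to 1 side at P21 beside the Igfbpl1 value, although no list gene was called. Of 8 olfactory bulb genes, 7 had a lower mean in KO mice (median log2 fold change -0.54, 0 called), and their summed level was 2775 to 3425 normalized counts in KO and 2990 to 4321 in WT mice at P21. Omp, a marker of olfactory sensory axons, had 15.2 ± 3.00 normalized counts in P21 KO mice and 31.7 ± 22.0 in P21 WT mice. The 5 blood genes were also lower in P21 KO mice (median -0.75, 0 called), while the 8 ependyma and choroid genes were all higher (median 0.28, 0 called). All 10 cerebellum, 8 mature oligodendrocyte and 8 astrocyte genes were higher too (medians 0.07, 0.11 and 0.09, 0 called). Of the 41 other neuroblast and young neuron genes, 34 had a lower mean in P21 KO mice, with a median of only -0.05 and 0 called. The part of these lists in the Igfbpl1 difference was not tested.

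Finally, the mouse-to-mouse variation within groups was described by the Pearson correlation of log2 values after subtracting each group mean, over 20 mice that each share one library across genes. Each of the 8 genes was set against the mean of the other 7. Dpysl3 (r = 0.779), Sox4 (0.673), Dcx (0.608) and Neurod1 (0.509) varied with the rest, and Sox11 (0.333), Nes (0.159), Igfbpl1 (0.111) and Dpysl5 (0.0266) less so. Without the replicate 5 mice at P70, over 18 mice, the value was lower for Dpysl3 (0.58), Sox4 (0.414), Dcx (0.353), Neurod1 (0.0817) and Sox11 (0.0741) and higher for Dpysl5 (0.457), Nes (0.18) and Igfbpl1 (0.153). The pair Dcx and Dpysl3 had r = 0.851 over 20 and 0.677 over 18 mice. Dpysl5 went the other way, with r = 0.305 and 0.847 for Dpysl3 with Dpysl5 and 0.149 and 0.738 for Dcx with Dpysl5. The genes outside the group most like its mean were Fgfr1op (0.912), Ppil4 (0.887), Nfib (0.874), Slco5a1 (0.874), Mapk1ip1l (0.871) and Nid1 (0.868), and 5 of these 6, all but Slco5a1, remained among the 6 most alike over 18 mice.

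Single genes also varied with marker lists, and the pairs named here were picked among all genes and lists. Neurod1 varied with the cerebellum genes (r = 0.585 over 20 mice, 0.782 without the replicate 5 mice), and Nes with the endothelial and mural genes (0.573 and 0.725). Sox4 varied with the cell division genes (0.604 and 0.593) and Dcx with the mature neuron genes (0.663 and 0.774). Sox4 was similarly close to the neuroblast and young neuron genes (0.609 and 0.57), and Dpysl3 to the mature neuron genes (0.632 and 0.631). Dcx varied inversely with the ependyma and choroid genes (-0.697 and -0.552), as did Dpysl3 (-0.623 and -0.379) and Neurod1 (-0.604 and -0.345). The replicate 5 mice had the highest summed ependyma and choroid level of their P70 groups, 27504 normalized counts in KO and 27416 in WT mice, against 15465 to 26440 and 12624 to 21756 in the others. Most of this sum is the choroid gene Ttr. Its mean was 21470 of a mean sum of 23540 in P70 KO mice, and 16370 of 18249 in P70 WT mice.

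**Figure D5:**
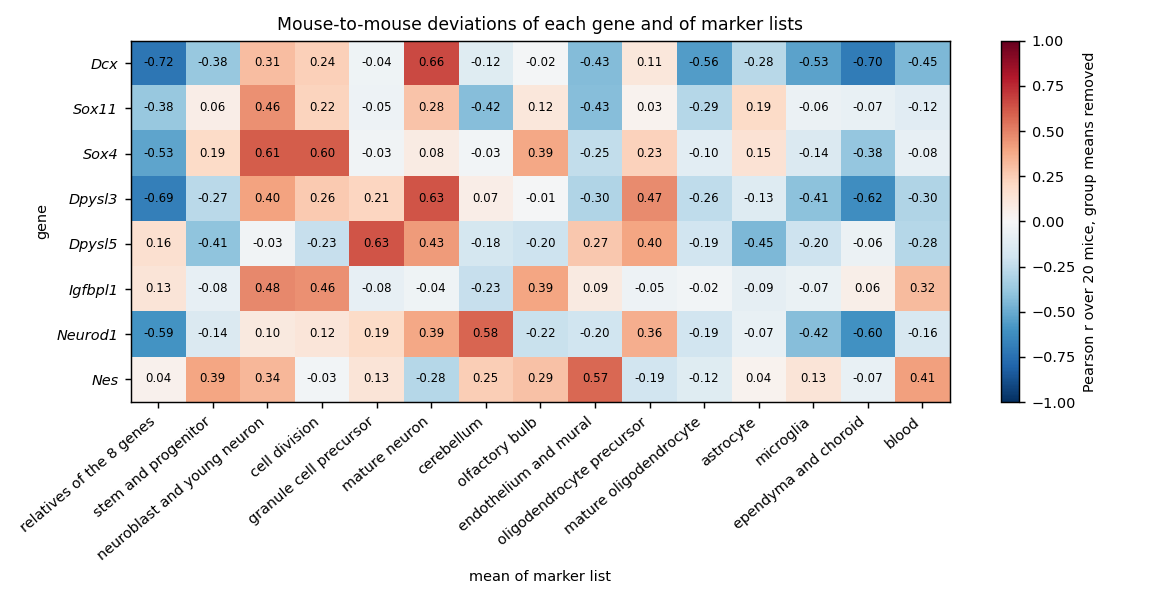
Pearson correlation (colour and number) of each gene (rows) with the mean of each marker list (columns) over 20 mice after group means were subtracted. Neurod1 with cerebellum genes (0.58), Nes with endothelial and mural genes (0.57) and Dcx with ependyma and choroid genes (-0.70) are among the larger values, and the largest in size is Dcx with the relatives of the 8 genes (-0.72), which was -0.205 without the replicate 5 mice.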

How the data were processed

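The authors purified poly-A RNA from whole brains, made TruSeq v2 libraries and sequenced them as read pairs. Transcript abundance was estimated with Salmon 1.1.0 on GRCm38 with GC bias correction, imported with tximport and normalized with DESeq2 (1.26.0 with R 3.6.2 in the submitters' processing notes, while the paper names other versions). The deposited signal values are these normalized counts, 1 column a mouse, and they are not whole reads. Depth was estimated from the spacing of low values and is approximate.

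Genes with a mean of at least 10 in a fit were tested on log2(value + 1) with limma 3.58.1 in R 4.3.3 (lmFit and eBayes with an intensity trend, checked on simulated data), with Benjamini-Hochberg adjustment over all genes tested. A test used only the groups compared, and the interaction used all 20 mice. Single genes were also tested by exact two-sided permutation. Coordinates are from GENCODE M21, and promoters are from the RefSeq table, with windows taken for 6 of the genes. Marker genes named were those with the smallest limma p in each list in WT mice with age, or in KO against WT mice. The 8 genes and the marker lists were chosen with earlier results of these data known. Same-numbered mice are different animals. Samples were grouped by their labels, and no sample was left out of the main fits. The p-values measure the spread between the 5 mice of a group.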

Additional observations from a re-analysis of the deposited data

Results flagged for a closer look

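Among the 32 groups of 5 mice formed by the 8 genes, 5 held a mouse far from the others (a gap to the nearest mouse over 0.71 of the group's range), and chance sets apart about 1 in 20 such groups. Dpysl3 stood high in P21 KO replicate 4, at 2217 normalized counts, and low in P70 WT replicate 5, at 1248.8. Neurod1 stood low in P70 WT replicate 5, at 1468.4. Nes stood high in P21 WT replicate 3, at 253.97, and in P21 KO replicate 4, at 307.95. Of the 5, 2 were in P70 WT replicate 5 and 2 in P21 KO replicate 4.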

How the results depend on the processing

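No member changed direction with age under any alternative tried, and with age the settings other than leaving out 1 mouse gave 4 to 5 members called in WT and 3 to 6 in KO mice. In KO mice Dcx was called with scaling to the sum of each mouse, a filter at a mean of 50, a pseudocount of 5 and all 20 mice in 1 fit (limma adjusted p from 0.0263 to 0.04997), and in WT mice Dpysl5 was not called without the trend (limma adjusted p = 0.068). The deviations of KO and WT mice with the same number correlated at -0.0091 to 0.26 at P21 and 0.0749 to 0.705 at P70. At these ages 5 of 10 and 7 of 10 mice were most like their own number. Some likeness by number was thus seen, most in the replicate 5 mice at P70 (0.705). The labels do not state a pairing and same-numbered mice are different animals, so the main fits did not pair them. What the numbers share was not tested. With the replicate number as a block, 5 members were called in WT and 3 in KO mice, and 1265 and 913 genes in all against 1643 and 1467 without it, and 0 genes for KO against WT at either age and for the interaction. Under the block Dpysl5 lost its call in both genotypes (limma adjusted p = 0.0554 and 0.0537) and Neurod1 gained one in WT (0.0384). Without both P70 replicate 5 mice, 3000 genes were called with age in WT, 3759 in KO, and 1 for KO against WT at P70 (Gm28438, named after its value was seen). Leaving out each mouse in turn gave 912 (without P21 WT replicate 4) to 3000 genes in WT, 896 to 3759 in KO, and 0 to 1 for KO against WT at P21 (Lenep without P21 KO replicate 4 and Spats2l without P21 WT replicate 3, also named after their values were seen), and 943, 957 and 896 genes in KO without P21 KO replicates 1, 2 and 4. It gave 4 to 5 members called in WT and 3 to 6 in KO. The single-gene permutation tests passed in 0 to 1 of 16, for Igfbpl1 at P21 as given, and at P70 for Nes without WT replicate 1 (p = 0.0397), Sox11 without WT replicate 3 (p = 0.0476) and Neurod1 without WT replicate 5 (p = 0.0317), all exact. Small KO against WT differences crossed 0 when 1 mouse was left out, at P21 for Neurod1 (-0.056 to 0.064), Nes (-0.079 to 0.116) and Dpysl5 (-0.129 to 0.003) and at P70 for Dpysl5 (-0.03 to 0.047), Sox4 (-0.069 to 0.077), Dcx (-0.316 to 0.054) and Dpysl3 (-0.117 to 0.012), as did the interaction of Dcx (-0.114 to 0.256), Dpysl3 (-0.032 to 0.097) and Dpysl5 (-0.001 to 0.13). The cause of these shifts was not tested. The setting without the replicate 5 mice in the correlations was chosen after seeing the data, and the low counts of Igfbpl1 limit its precision.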
